A study of Mus musculus with 12 samples.

Results

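The response of primary mouse adipocytes to calcitriol added to olanzapine was described across all expressed genes. The library of adipocytes that received olanzapine with calcitriol was set against the library that received olanzapine alone. Of 17742 genes in the adipocyte table, 11804 had a level of at least 1 TPM, a unit scaled to gene length and library total, in any of the 4 adipocyte libraries and were compared. The gene just inside this limit was Trim62, with a highest TPM of 1.0001, and the gene just outside it was Icam5, with 0.9985.

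The study sequenced poly(A) RNA of cultured adipocytes, hepatocytes and C2C12 myotubes under 4 treatments, to look at genes of cholesterol metabolism under olanzapine, an atypical antipsychotic drug, and the vitamin D metabolites. The adipocytes were differentiated in culture from preadipocytes of the subcutaneous fat of newborn C57BL6/J pups. In the calcitriol co-treatment, calcitriol (0.1 μM) was given for 24 h and then together with olanzapine (1 μM) for 12 h. The calcifediol co-treatment was the same with calcifediol (10 μM). In the olanzapine culture, 24 h of vehicle preceded 12 h of olanzapine (1 μM). The vehicle culture had DMSO, which all cultures received as solvent, for 36 h and no drug. Each condition had 1 library, so no difference below has a replicate check and no p-value between conditions can be given.

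Calcitriol is the hormonal form of vitamin D. It binds the vitamin D receptor (VDR), a nuclear receptor that pairs with retinoid X receptors on DNA and raises or lowers transcription of its target genes, and calcifediol is the circulating precursor from which calcitriol is made. The best known target, Cyp24a1, encodes the 24-hydroxylase that inactivates both metabolites. In fat, preadipocytes and adipocytes can carry VDR, and calcitriol is known for effects on adipocyte differentiation and on inflammatory genes.

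The calcitriol library held 15922559 counts, against 16934641 in the olanzapine library, and the calcifediol and vehicle libraries held 17225873 and 15641434. At these depths a count of 0 allows up to 0.174 to 0.192 CPM, the unit of counts scaled to the library total, taken as 3 counts per library. Scd1, a fatty acid desaturase, took 4.49% to 5.72% of the counts of a library. All 16 markers of adipocyte identity were detected in each library, and they summed to 41390 CPM in the calcitriol library and 43100 CPM in the olanzapine library. The 14 preadipocyte and fibroblast markers summed to 21560 and 19410 CPM in the same libraries. As a group they were not higher with calcitriol, since of 13 compared members 5 had a log2 ratio above 0 and 8 below (median -0.05). The 12 macrophage markers summed to 20.2 and 20.6 CPM in the calcitriol and olanzapine libraries, and the 7 mural markers to 124.2 and 117.2 CPM. The 6 Schwann cell markers were all detected and summed to 911.3 and 924.6 CPM. In such bulk samples, fewer cells of a type and less RNA per cell cannot be told apart.

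Calcitriol co-treatment was accompanied by a small set of changed genes. Most genes stayed close to the olanzapine library, with 94.8% of the 11804 genes within 1.5-fold and a median log2 ratio of -0.02. Genes were called by the rule of the study, a fold of at least 2 and a false discovery rate of at most 0.05 in the Audic-Claverie comparison of the reads of 2 libraries. By it, 61 genes were called higher (0.517% of those compared) and 55 lower (0.466%). The rule compares these 2 libraries and not the conditions. Among the higher genes were Cyp24a1, which stood far above the others, and Inmt, Enpp1, Vtn and Crabp2. No gene of the adipocyte identity, lipid synthesis, lipolysis or cholesterol synthesis lists was called, as the background share gives for lists of their size.

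**Figure D1:**
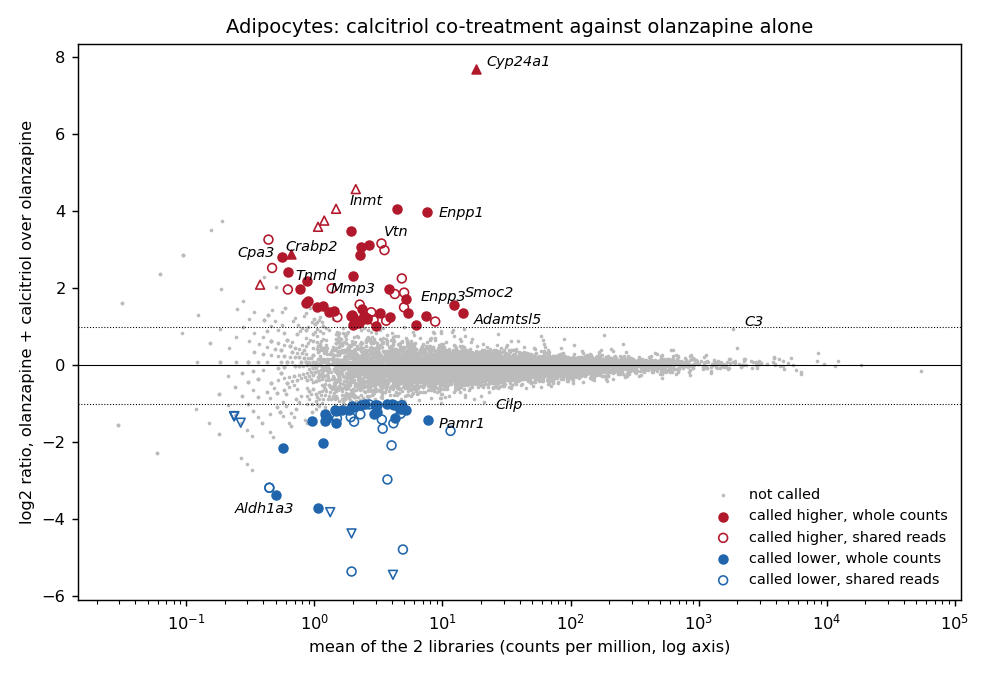
Log2 ratio of olanzapine with calcitriol over olanzapine (vertical axis) against the mean of both libraries in CPM (horizontal log axis) for 11804 genes, with 61 called higher in red and 55 called lower in blue. Triangles are genes with 0 counts in 1 library, drawn at the bound given by 3 counts, dotted lines mark 2-fold, and nearly all called genes lie below 10 CPM whereas Cyp24a1 stands far above the rest.

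Many calls rested on few reads or on reads shared between near-identical genes. In 21 of the 61 higher genes and 24 of the 55 lower genes the authors' count was not a whole number in at least 1 library, which means that reads were divided among copies. The largest of these by the naming rule were Plac9a, Entpd4 and Serpina3g among the higher genes, and Mup11, Hist1h1e, Nutf2-ps2 and Zfp966 among the lower genes. These values depend on how reads were divided, so their values are not described here. The remaining 40 higher and 31 lower genes, 0.383% and 0.297% of the genes with whole counts in all libraries, are those that most values below are about. In 46 of the 61 higher genes and 41 of the 55 lower genes the larger of the 2 counts was under 100.

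Cyp24a1 had 579 counts in the calcitriol library and 661 in the calcifediol library, against 0 in the olanzapine library and 2 in the vehicle library. It was at least 205-fold higher with calcitriol than with olanzapine alone, with the olanzapine count set to 3. Both cultures with a vitamin D metabolite thus had high levels and both without one were at or near 0. The receptor itself, Vdr, had 33 counts with calcitriol, 28 with calcifediol, 20 with olanzapine and 25 with vehicle, and it stayed below the TPM limit in all 4. Its log2 ratio of 0.80 had a 95% interval of -0.03 to 1.69 (exact Clopper-Pearson, as for all intervals below, which cover counting error only), so a difference was not detectable at this depth. Of 2 further genes of the pathway, chosen after their values were seen, Rxra, a retinoid X receptor, had 3217 counts with calcitriol and 3331 with olanzapine, a log2 ratio of 0.04 (-0.03 to 0.11). Cyp27b1, the 1-alpha-hydroxylase that makes calcitriol, had 2 counts with calcitriol, 2 with calcifediol, 6 with olanzapine and 9 with vehicle, too few for a comparison.

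Among 12 compared genes of a list of vitamin D targets known from other tissues, Cyp24a1 and Enpp1 were called higher, against 0.517% of all genes, none was called lower and the median log2 ratio was 0.16. The list was chosen with earlier results of these data known, so its share of calls is a description only. Enpp1, an ectoenzyme that makes pyrophosphate from extracellular ATP and thereby restrains mineralization, had 229 counts with calcitriol, 130 with calcifediol, 15 with olanzapine and 36 with vehicle. Its log2 ratio to olanzapine was 3.98 (3.27 to 4.88). The vehicle library lay above the olanzapine library for Enpp1, and against vehicle the ratio was 2.63. Thbd, thrombomodulin, an anticoagulant cell surface protein, had 269 counts with calcitriol and 316 with calcifediol, against 185 with olanzapine and 173 with vehicle. Its log2 ratio of 0.63 (0.35 to 0.91) was under 2-fold and it was not called. Spp1, osteopontin, had 43 and 31 counts with calcitriol and olanzapine, with an interval of -0.14 to 1.28.

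Enpp3, an ectonucleotidase of the same family as Enpp1, was also called higher. It had 127 counts with calcitriol and 137 with calcifediol, against 41 with olanzapine and 42 with vehicle (log2 ratio 1.71, 1.202 to 2.27). Enpp1 and Enpp3 lie next to each other on chromosome 10 (GRCm38.p6, 24637914 to 24712159 and 24773814 to 24836195), and 6 compared genes fall within 500 kb on either side of the pair, themselves included. The other 4, named for their position, were not called. Med23, a subunit of the Mediator complex, had 442 and 494 counts with calcitriol and olanzapine (log2 ratio -0.07), Stx7 had a log2 ratio of -0.11 and Akap7 of -0.24. Ctgf had only 33 and 23 counts, with a log2 ratio of 0.60 (-0.20 to 1.44).

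Several of the genes with the largest ratios were nearly silent without a vitamin D metabolite. Inmt, a methyltransferase that acts on indoleamines, had 132 counts with calcitriol and 149 with calcifediol, against 8 with olanzapine and 14 with vehicle (log2 ratio 4.05, 3.11 to 5.37). Vtn, the adhesive plasma and matrix protein vitronectin, had 77 and 104 counts in the calcitriol and calcifediol libraries and 9 and 12 in the olanzapine and vehicle libraries (log2 ratio 3.11, 2.19 to 4.37). Crabp2, which carries retinoic acid to its nuclear receptors, had 66 and 64 counts with the metabolites, against 8 with olanzapine and 4 with vehicle (log2 ratio 3.05, 2.07 to 4.40). For these 3 genes both metabolite libraries lay far above both others. Tnmd, the transmembrane protein tenomodulin, which tendon and fat express, had 53 counts with calcitriol, 30 with calcifediol, 11 with olanzapine and 17 with vehicle (log2 ratio 2.30, 1.40 to 3.44). Slc45a3 and Scube1, chosen after their values were seen, followed the same pattern. Slc45a3 had 57 counts with calcitriol and 51 with calcifediol, against 5 and 10 with olanzapine and vehicle. Scube1, a secreted and cell surface protein, had 64 and 40 with the metabolites, against 9 and 10 without.

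Genes of the extracellular matrix and its turnover were next. Mmp3, the protease stromelysin-1, had 97 counts with calcitriol and 141 with calcifediol, against 26 with olanzapine and 29 with vehicle (log2 ratio 1.97, 1.35 to 2.67). Smoc2, a secreted calcium-binding matricellular protein, had 294 and 343 counts with the metabolites, against 105 with olanzapine and 90 with vehicle (1.57, 1.25 to 1.91). Adamtsl5, a matrix protein related to the ADAMTS proteases that lacks their protease domain, had 333 and 426 counts, against 138 and 161 (1.36, 1.07 to 1.66). In all 3 genes the vehicle and olanzapine libraries were close to each other. Mmp3 was the only called gene among 18 compared matrix proteases and inhibitors, against 0.517% of all genes called higher. The median log2 ratio of these 18 genes was 0.02. In that list Timp1, an inhibitor of matrix metalloproteases, had 550 counts with calcitriol and 334 with olanzapine (0.81, 0.61 to 1.01), and Adamts1, a protease, had 342 and 549 (-0.59, -0.79 to -0.40), both under 2-fold. None of 22 collagens and matrix genes was called, which is the background for a list of this size. Their median was 0.03, and Cilp, a cartilage matrix protein also made by fibroblasts, came closest with 230 counts with calcitriol and 132 with calcifediol, against 473 with olanzapine and 390 with vehicle (-0.95, -1.18 to -0.72).

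Of the other higher genes named by the rule, Shisa4, which encodes a transmembrane protein, had 168 counts with calcitriol and 200 with calcifediol, against 73 with olanzapine and 65 with vehicle (log2 ratio 1.29, 0.89 to 1.71). Tmem100, a transmembrane protein known from vessels, had 75, 49, 31 and 28 counts in the calcitriol, calcifediol, olanzapine and vehicle libraries (1.35, 0.74 to 2.02). Depp1, known as a target of FoxO factors, had 55 counts with calcitriol, 52 with calcifediol, 24 with olanzapine and 25 with vehicle (1.27, 0.57 to 2.04). All 3 genes were lowest in the libraries without a metabolite. Cpa3, a mast cell carboxypeptidase, was the exception among these genes, since it had 21 counts with calcitriol, 1 with calcifediol and 0 with olanzapine and vehicle. It was at least 7.45-fold higher with calcitriol than with olanzapine alone, with the olanzapine count set to 3. Of the other mast cell markers, also chosen after their values were seen, Cma1 had 4 counts with calcitriol and 0 in the other 3 libraries and Mcpt4 had 0 in all. All 7 mast cell and lymphocyte markers, Cpa3 included, summed to 43 counts with calcitriol, 11 with calcifediol, 22 with olanzapine and 17 with vehicle. The 22 counts with olanzapine came from 2 members other than these 3 genes. The part of mast cells in this call was not tested.

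**Figure D2:**
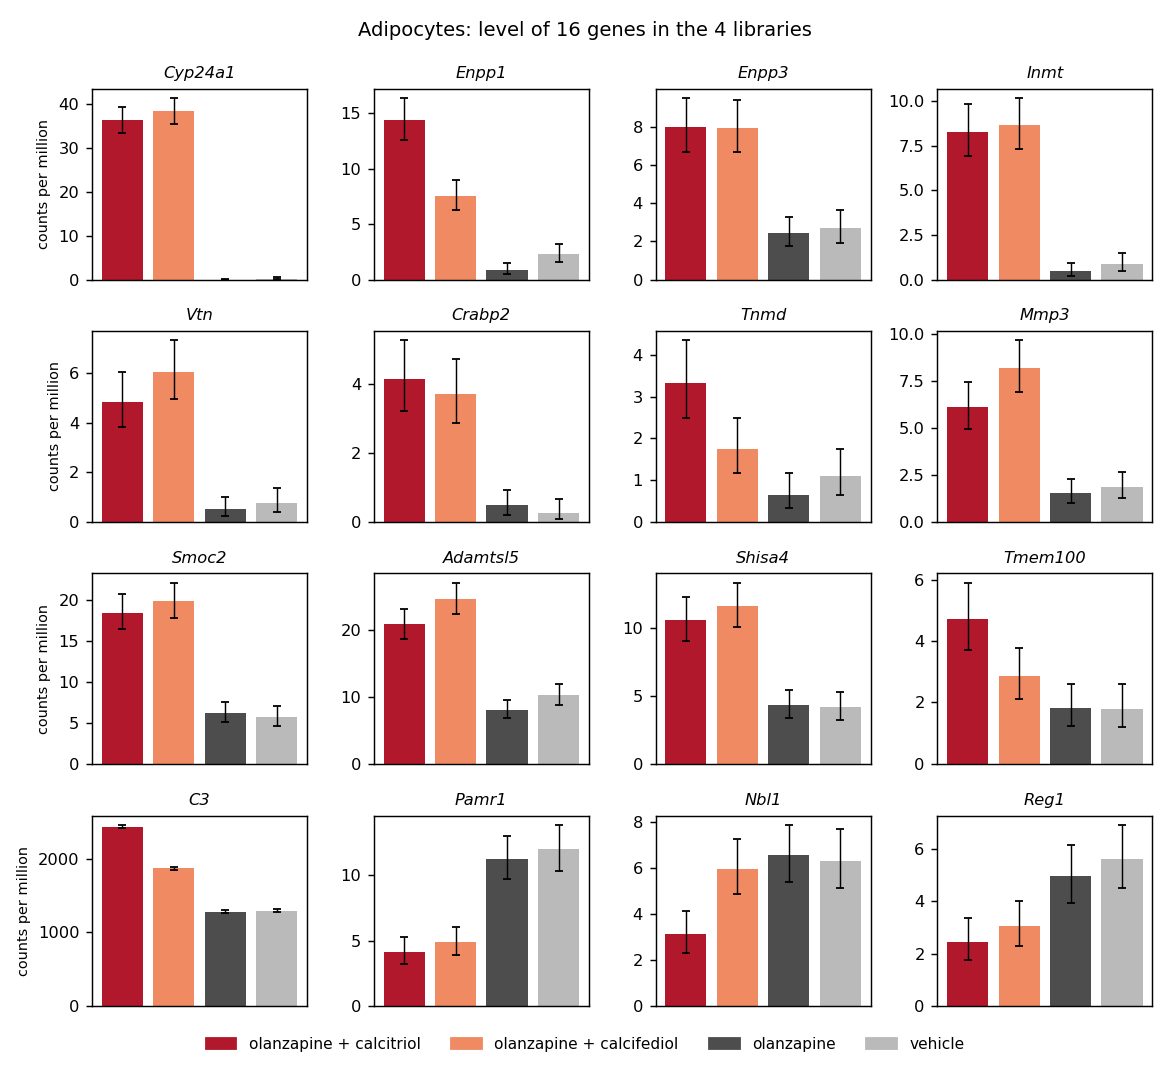
Level of 16 genes in CPM (vertical axes, from 0) in the libraries with olanzapine and calcitriol, olanzapine and calcifediol, olanzapine alone and vehicle, from left to right. Bars are 1 library each with 95% Poisson intervals for counting error only, and 13 genes from Cyp24a1 to C3 stand higher in both metabolite libraries than in the others, whereas Pamr1, Reg1 and Nbl1 are lowest with calcitriol, with Nbl1 little lower with calcifediol than with olanzapine or vehicle.

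Fewer lower genes were expressed well enough to be named. Pamr1, a secreted protein with a peptidase-like domain, had 66 counts with calcitriol and 84 with calcifediol, against 191 with olanzapine and 188 with vehicle (log2 ratio -1.44, -1.87 to -1.03). Reg1, a secreted lectin first known from pancreas, had 39 and 53 counts with the metabolites, against 84 and 88 (-1.01, -1.60 to -0.45). Nbl1, a secreted antagonist of bone morphogenetic proteins, had 50 counts with calcitriol, against 111 with olanzapine (-1.05, -1.57 to -0.57). With 103 counts in the calcifediol library and 99 in the vehicle library, its calcitriol library was well below the other 3. Il33, an alarmin cytokine of stromal cells, had 20, 11, 45 and 31 counts in the calcitriol, calcifediol, olanzapine and vehicle libraries (-1.06, -1.92 to -0.29).

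At lower levels, and chosen after their values were seen, Aldh1a3 and Sema3d stood out. Aldh1a3, which makes retinoic acid from retinal, had 2 counts with calcitriol and 3 with calcifediol, against 34 with olanzapine and 44 with vehicle (log2 ratio -3.71, -7.10 to -2.03). Sema3d, a secreted guidance molecule, had 51 and 41 counts with the metabolites, against 122 with olanzapine and 132 with vehicle. Both metabolite libraries were thus below both others for each gene. Adh7, an alcohol dehydrogenase that also oxidizes retinol, was called higher, with 58 counts with calcitriol, 67 with calcifediol, 26 with olanzapine and 43 with vehicle, and it too was chosen after its values were seen.

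Of 18 compared genes of a list on inflammation and NF-kappaB, Cxcl5 was called higher and Il33 lower, against 0.517% and 0.466% of all genes, and the median log2 ratio was 0.08. Cxcl5, a neutrophil chemokine, had 44 counts with calcitriol, 36 with calcifediol, 19 with olanzapine and 32 with vehicle, so its vehicle library lay between. Against vehicle the log2 ratio was only 0.43 and it was not called. None of 14 compared complement genes was called, which is the background for a list of this size, and their median was 0.16. C3, the central complement component, had the largest absolute gain of these genes, with 38823 counts with calcitriol and 32204 with calcifediol, against 21738 with olanzapine and 20305 with vehicle. Its log2 ratio of 0.93 (0.90 to 0.95) had a narrow interval and stayed under the 2-fold limit. Serping1, the C1 inhibitor, had 1176 and 907 counts with calcitriol and olanzapine (0.46, 0.34 to 0.59). Cebpd, a transcription factor induced by glucocorticoids and cytokines, had 307 counts with calcitriol and 375 with calcifediol, against 171 with olanzapine and 210 with vehicle (0.93, 0.66 to 1.21).

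Of 16 genes of adipocyte identity none was called, with a median log2 ratio of -0.03. Pparg and Adipoq were added after their values were seen. Pparg, the master regulator of adipogenesis, had 7005 counts with calcitriol and 7283 with olanzapine (0.03, -0.01 to 0.08), and the fatty acid carrier Fabp4 had 93597 and 113063 (-0.18, -0.20 to -0.17). Adipoq, which encodes adiponectin, had 31365 counts with calcitriol, 33736 with calcifediol, 31934 with olanzapine and 38758 with vehicle. Neither fatty acid synthesis (18 genes, median -0.02), triglyceride synthesis (15, 0.04), lipolysis and the lipid droplet (18, -0.02), fatty acid oxidation (17, -0.01) nor the thermogenic genes (14, -0.04) held a called gene. With 0.517% of all genes called higher and 0.466% lower, no call is the background for lists of this size. In the list of insulin signalling and glucose uptake, 15 of 19 genes lay below 0 with a median of -0.07, and none was called. Of all 11804 genes, 6512 lay below 0, with a median of -0.02. Insr, the insulin receptor, had 1645 counts with calcitriol and 2103 with olanzapine (-0.27, -0.36 to -0.17). The vehicle library, with 1527, was below the olanzapine library too.

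The cholesterol genes, about which the study asked, differed little. All 18 compared synthesis enzymes were expressed and none was called, with 12 above 0, 6 below and a median log2 ratio of 0.03. With 0.517% of all genes called higher and 0.466% lower, no call is the background for a list of this size. Hmgcs1, the synthase at the head of the mevalonate pathway, had 7901 counts with calcitriol, 7757 with calcifediol, 9576 with olanzapine and 8609 with vehicle (-0.19, -0.23 to -0.15). Hsd17b7, a later enzyme of the pathway, had 986 and 1309 counts with calcitriol and olanzapine (-0.32, -0.44 to -0.20), the widest gap of the list. Lss and Fdft1, which form lanosterol and squalene, had log2 ratios of 0.03 and 0.04, Fdps 0.01, Cyp51 -0.04 and Nsdhl 0.06. Insig2, an endoplasmic reticulum protein that holds back sterol synthesis and is a known VDR target, had 720 counts with calcitriol, 781 with calcifediol, 738 with olanzapine and 889 with vehicle. Its log2 ratio was 0.05 (-0.10 to 0.20), and that of Insig1 was 0.00 (-0.03 to 0.03). Counting error alone therefore leaves no room for a 2-fold difference in either gene between these libraries.

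**Figure D3:**
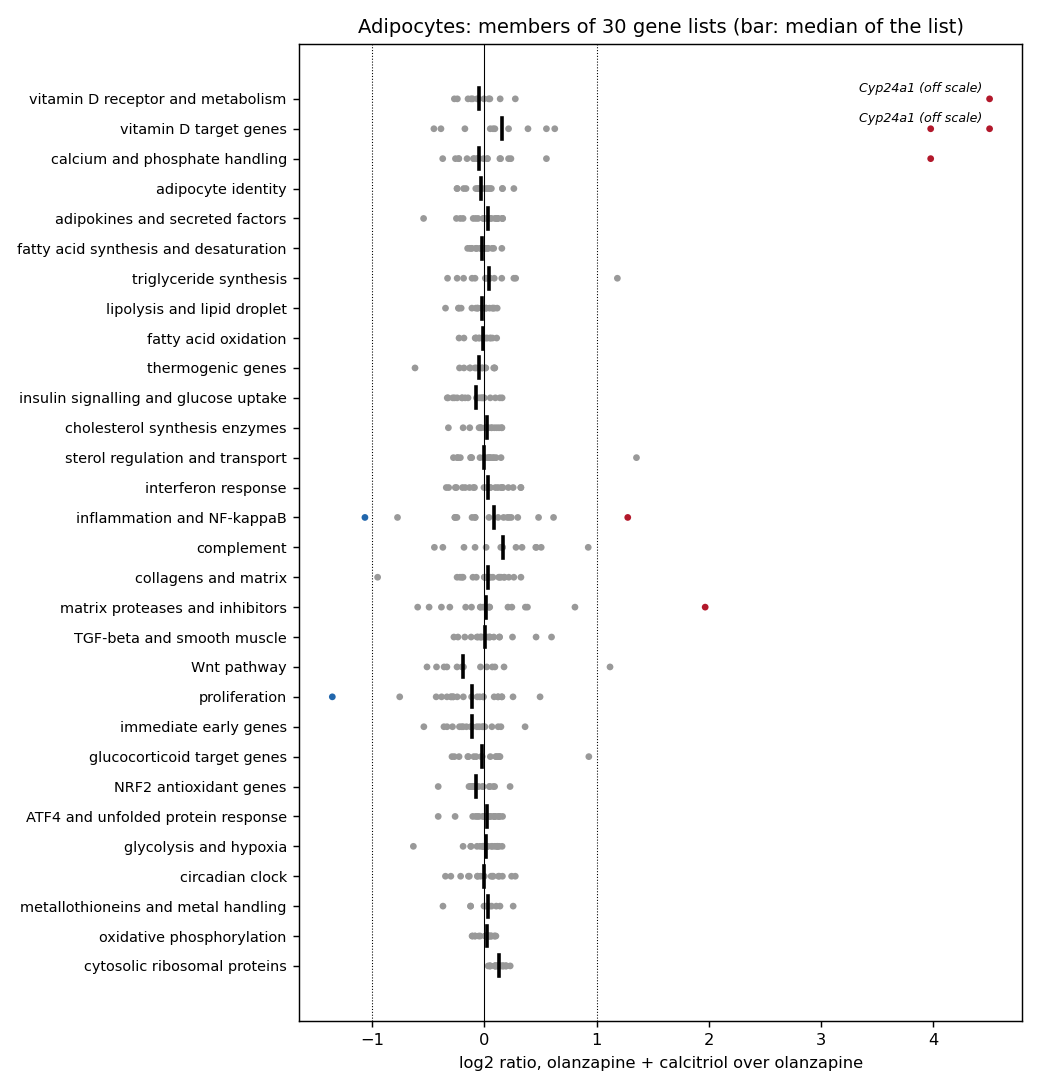
Log2 ratio of olanzapine with calcitriol over olanzapine (horizontal axis) for each compared member of 30 gene lists (rows), with called genes in red or blue and the median as a black bar. Nearly all lists are centred near 0, and the called members are Cyp24a1, drawn at the edge of the axis, Enpp1, Mmp3, Cxcl5, Il33 and Kif11, a gene with shared reads.

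Among the remaining lists, the cytosolic ribosomal proteins lay above 0 in 24 of 24 genes, beside 5287 of all 11804 genes, with a median of 0.13. None was called, which is the background for a list of this size. The ribosomal protein gene Rplp0, which is often used to scale expression, had 1169 CPM with calcitriol, 1317 with calcifediol, 1020 with olanzapine and 1324 with vehicle. The low value was thus in the olanzapine library. Scaled to Rplp0, the median of all genes moved to -0.22 and the sign of the ribosomal list turned. Under that scaling 52 genes were called higher and 134 lower. The 22 interferon response genes had a median of -1.03 in olanzapine against vehicle. With calcitriol against olanzapine none was called, again the background, and the median was 0.04. In the proliferation list 16 of 23 genes were below 0, beside 6512 of all 11804 genes, with a median of -0.11. The single call, Kif11, was lower, against 0.466% of all genes, and had shared reads.

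The calls were then read in libraries whose ratio did not enter them, calcifediol co-treatment against vehicle. Only genes that reached 1 TPM in the calcitriol or olanzapine library were counted here, a limit added after the data were seen, which left 39 of the 40 higher genes with whole counts and all 31 lower ones. Of the 39 higher genes 16 were also called higher, against 0.349% of all genes with whole counts under the same limit, and none was called lower. The 1 higher gene outside the limit, Map3k15, named for that place, was called lower for calcifediol against vehicle (log2 ratio -1.52). That no gene was called lower thus depends on the added limit. Of the 31 lower genes 7 were called lower, against 0.61% of all such genes, and none higher. Cyp24a1, Inmt, Enpp1, Enpp3, Vtn, Crabp2, Mmp3, Smoc2, Adamtsl5 and Shisa4 were among the 16, and Pamr1, Il33, Aldh1a3 and Sema3d among the 7. Tnmd, Tmem100 and Depp1 did not pass, with log2 ratios of 0.67, 0.66 and 0.90 for calcifediol against vehicle. The dose of calcifediol was 10 μM and that of calcitriol 0.1 μM, and a comparison of the potency of the metabolites was not made.

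Of the 21 higher genes with shared reads, 1 was called higher and 4 lower for calcifediol against vehicle, and of the 24 lower genes with shared reads, 6 were called lower and 6 higher. Over all 11804 genes that comparison called 0.491% higher and 1.04% lower.

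Setting the calcitriol library against vehicle in place of olanzapine gave 55 higher (0.466%) and 108 lower genes (0.915%). Of the 61 higher genes 26 were called in the same direction, as were 25 of the 55 lower genes. Of the called genes with whole counts named above, Cxcl5 (log2 ratio to vehicle 0.43), Il33 (-0.64) and Adh7 (0.40) were not among them. In Ptx3, a pentraxin of innate immunity chosen after its values were seen, the vehicle library with 117 counts was near the 133 and 151 counts of the calcitriol and calcifediol libraries, and the olanzapine library with 68 stood alone.

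Calcitriol was added to olanzapine in the other cell types too, in libraries that share nothing with the adipocyte comparison. Of the 40 higher genes with whole counts, 23 reached 1 TPM in the vehicle library of C2C12 myotubes, an established mouse muscle cell line, which is not part of the comparison, a limit added after the data were seen. Of these, 12 were called higher in C2C12, 2 were called lower and 9 were not called. Under the same limit 2.42% of all genes with whole counts were called higher in C2C12. Several genes that C2C12 hardly expressed without a metabolite stayed below the limit, and their counts are given as values only. Cyp24a1 had 9096 counts with calcitriol, against 0 with olanzapine, in C2C12. Inmt had 63 and 0, Vtn 102 and 0, and Tnmd 103 and 0. Crabp2 was already expressed, with 4924 counts with calcitriol and 1720 with olanzapine, a log2 ratio of 1.51. Mmp3 had 123 and 0, and Tmem100 233 and 16. Enpp3 (3423 and 179) and Adamtsl5 (9880 and 4108), both expressed in vehicle, were called higher. Enpp1, with 4856 and 2837 counts, differed by a log2 ratio of 0.76 and was not called, and neither was Shisa4 (0.39). Of 19 lower genes within the limit, 1 was called lower, against 2.62% of all genes, and none higher, so their share was near the background. It was Aldh1a3, with 14 counts with calcitriol and 60 with olanzapine.

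**Figure D4:**
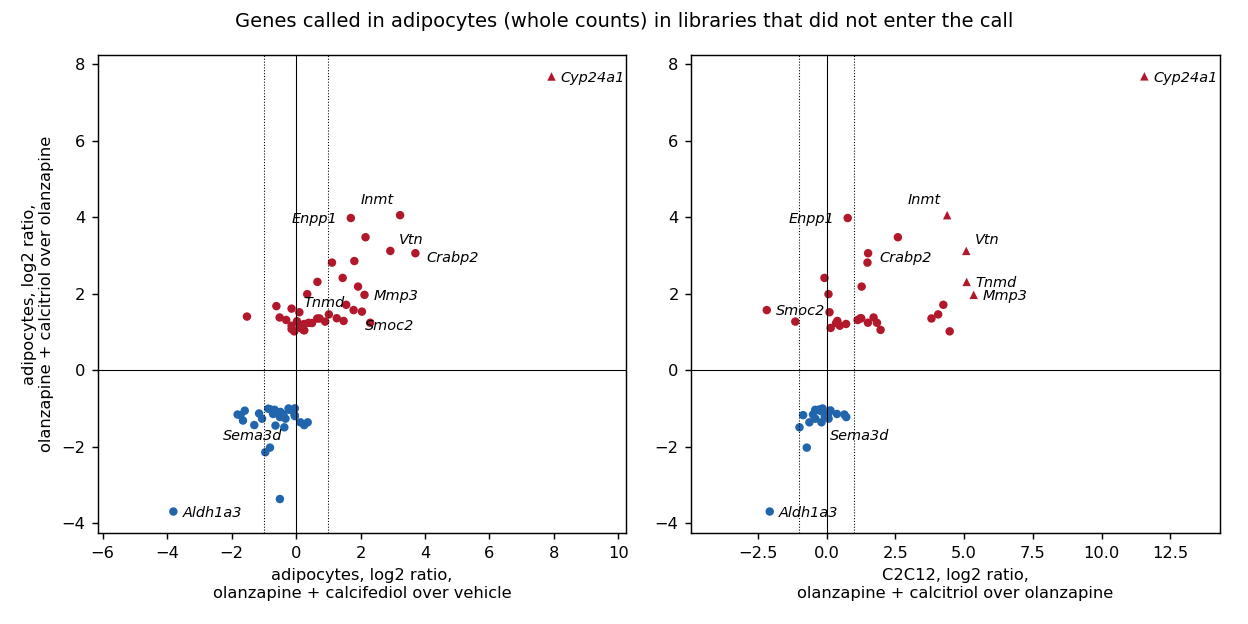
Called adipocyte genes with whole counts, with the adipocyte log2 ratio of olanzapine with calcitriol over olanzapine on the vertical axes, against olanzapine with calcifediol over vehicle in adipocytes (left) and olanzapine with calcitriol over olanzapine in C2C12 (right). Red genes were called higher and blue lower in adipocytes, triangles hold a count of 0 set to 3, genes with at most 3 counts in both libraries of a horizontal axis are left out, and most red genes lie right of 0 in both panels, with Smoc2 left of 0 in C2C12.

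In hepatocytes, 18 of the higher and 12 of the lower genes with whole counts reached 1 TPM with vehicle, and none was called in either direction. Since that comparison called only 0.0457% of such genes higher and 0.206% lower, counts of 0 are what the background gives.

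The upstream sequences of called genes were searched for the motif that VDR and retinoid X receptor are known to bind, 2 half-sites in the same direction with 3 bases between them. The half-site was taken as AGGTCA, with AGTTCA as the second form, GGTTCA as the third, GGGTCA as the fourth and GGGTGA as the fifth, on both strands of the 250 bases before the start site of RefSeq genes on GRCm38.p6. Of 9415 compared genes with an entry, 11 (0.117%) held the full motif, and none of the 41 higher and 38 lower genes with an entry did. A single half-site occurred in 46.9% of all compared genes with an entry, in 28 of the 41 higher genes (68.3%) and in 20 of the 38 lower genes (52.6%). With whole counts only, it occurred in 19 of 30 higher genes (63.3%) and in 10 of 24 lower genes (41.7%). A match is a description of letters and not a binding site. Called genes without an entry were not searched, among them Cyp24a1, Crabp2, Smoc2 and Tmem100. The upstream bases of 4 higher genes that were also called higher for calcifediol against vehicle are printed 5′ to 3′ in the direction of the gene, with half-sites in capitals. Vtn and Mmp3 each hold 2 separate half-sites, and the adjacent genes Enpp1 and Enpp3 hold none.
Vtn (chr11:78498870-78499119, plus strand): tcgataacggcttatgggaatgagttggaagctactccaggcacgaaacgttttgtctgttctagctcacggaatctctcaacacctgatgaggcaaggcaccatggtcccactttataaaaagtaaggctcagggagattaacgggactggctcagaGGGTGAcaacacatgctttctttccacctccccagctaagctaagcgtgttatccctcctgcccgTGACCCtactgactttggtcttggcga
Mmp3 (chr9:7445572-7445821, plus strand): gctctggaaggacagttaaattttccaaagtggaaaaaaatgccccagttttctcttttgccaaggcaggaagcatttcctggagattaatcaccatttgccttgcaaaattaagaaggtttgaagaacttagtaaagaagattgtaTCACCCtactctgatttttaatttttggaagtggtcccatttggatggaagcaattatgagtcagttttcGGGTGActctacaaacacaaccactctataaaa
Enpp1 (chr10:24712160-24712409, minus strand): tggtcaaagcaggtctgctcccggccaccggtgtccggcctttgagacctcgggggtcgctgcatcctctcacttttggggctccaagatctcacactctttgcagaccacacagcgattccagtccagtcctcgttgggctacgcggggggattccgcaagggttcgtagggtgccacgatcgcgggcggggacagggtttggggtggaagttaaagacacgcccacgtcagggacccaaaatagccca
Enpp3 (chr10:24836196-24836445, minus strand): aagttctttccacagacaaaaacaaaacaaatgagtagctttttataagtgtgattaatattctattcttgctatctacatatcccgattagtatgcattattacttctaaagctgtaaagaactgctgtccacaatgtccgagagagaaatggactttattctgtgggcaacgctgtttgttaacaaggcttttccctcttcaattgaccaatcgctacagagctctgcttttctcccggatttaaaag

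At the edge of the call rule, Npr3, the clearance receptor of natriuretic peptides, was the smallest higher call, with 65 counts with calcitriol and 34 with olanzapine (log2 ratio 1.01). Kcne4, a potassium channel subunit, fell just short with 107 and 57 counts (0.99). Among the lower genes Gria3 was just inside with 43 and 92 counts, and Col8a2 just outside with 20 and 43. All 4 were chosen for their place at the edge. By fold alone, 112 genes (0.949%) were higher and 110 (0.932%) lower.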

How the data were processed

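Poly(A) RNA of 12 cultures, 1 for each of 4 treatments in 3 cell types, was sequenced on DNBseq. Reads passed through SOAPnuke, alignment to the mouse genome GRCm38.p6 by HISAT 2.0.4 and, in parallel, by Bowtie 2.2.5, and RSEM 1.2.8. Its expected counts, as deposited by the authors, are not scaled between libraries and not whole where reads map to several genes. The FPKM values deposited beside them are relative to transcript length and depth. The 12 deposited TPM columns were not used, and TPM was recomputed from the FPKM.

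Expected counts were rounded and scaled to library totals, and log2 ratios were taken with a pseudocount of 0.5. Genes had to reach 1 TPM in 1 of the 4 adipocyte libraries. A gene was called at a fold of at least 2 and a Benjamini-Hochberg false discovery rate of at most 0.05 in a two-sided Audic-Claverie comparison of the reads of 2 libraries, as in the study. It compares libraries, not conditions, and no p is printed. Exact Clopper-Pearson 95% intervals cover counting error only, and bounds on a fold replace 0 by 3 counts. The call rule was tested on simulated data that held counting error only. Variation between cultures and shared reads were not simulated, so false calls from these were not tested. Of the gene numbers in the table, 17629 matched RefSeq, and 23 symbols that had become dates were restored.

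Members and the 40 gene lists (30 of pathways and 10 of markers of other cells) were chosen with earlier results of these data known. Lists are described by counts of calls and medians. Named genes were Cyp24a1, Vdr, Insig1, Insig2 and cholesterol enzymes the study names; up to 15 called genes in each direction with TPM of at least 5, predicted genes left out; called list members and up to 4 members with the largest ratio of each list; and up to 5 in each direction that were also called in C2C12. For any other gene the text says how it was picked. Results for some genes are not reported here. Alternatives were TMM factors (edgeR 4.0.16), median-of-ratios size factors (DESeq2 1.42.0), Rplp0, TPM, other thresholds, filters and pseudocount, and vehicle as reference. Python 3.11.15, scipy 1.17.1 and R 4.3.3 were used.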

Additional observations from a re-analysis of the deposited data

Results flagged for a closer look

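Smoc2 and Depp1 were called higher with calcitriol in adipocytes and lower with calcitriol in C2C12 myotubes. Smoc2, the secreted matricellular protein, had a log2 ratio of -2.18 in C2C12, with 134 counts with calcitriol and 604 with olanzapine, whereas in adipocytes it had 294 and 105 counts (1.57). Depp1, known as a target of FoxO factors, had a log2 ratio of -1.14 in C2C12, with 129 counts with calcitriol and 283 with olanzapine, whereas in adipocytes it had 55 and 24 counts (1.27). They were the 2 genes with whole counts that were called in opposite directions. With 1 library per condition the difference between the cell types was not tested.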

How the results depend on the processing

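Against 61 higher and 55 lower genes, the counts of calls moved by more than 1.5 times under these alternatives. Scaling to Rplp0 gave 134 lower genes, a TPM of at least 10 gave 8 higher and 5 lower, and a fold of at least 1.5 gave 108 and 137. A false discovery rate of at most 0.001 gave 34 and 23, the fold alone 112 and 110, and vehicle as reference 108 lower. Summing vehicle and olanzapine as reference gave 39 higher genes. Of alternatives added after the data were seen, whole counts only gave 40 and 31, and a call against both olanzapine and vehicle 26 and 25. TMM and median-of-ratios factors each gave 64 and 48, TPM 60 and 52, a pseudocount of 5 gave 57 and 41, and no expression filter 66 and 70. Of the called genes that the naming rule reached, 1, Plac9a, whose reads are shared, turned its sign, to -0.66 with vehicle as reference, and the cause was not tested. Genes with small ratios that were not called turned too, such as Insig2 (-0.14 under Rplp0, -0.33 with vehicle as reference) and Insr (0.08 with vehicle as reference). Of 40 list medians, 16 kept 1 sign under all scalings, since most lie near 0. Leaving out a library was not possible with 1 library per condition. No paired analysis was possible because no condition has a second library. Calls with counts under 100 are limited by depth, and variation between cultures was not measured.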

Other observations

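Some genes called higher in adipocytes that the naming rule did not reach had larger ratios in C2C12, and the examples were chosen after their values were seen. Fbln7, the adhesion protein fibulin-7, had 55 counts with calcitriol and 21 with olanzapine in adipocytes, a log2 ratio of 1.46, and 4160 and 248 in C2C12, a log2 ratio of 4.05. Npr3 had 65 and 34 counts in adipocytes and 2093 and 93 in C2C12 (log2 ratio 4.47). Gdpd5, a glycerophosphodiesterase, had 87 and 39 counts in adipocytes and 3739 and 1044 in C2C12 (1.83). Ptx3 had 133 and 68 counts in adipocytes and 123 and 31 in C2C12 (1.96). Slc45a3 went the other way in size, with a log2 ratio of 3.47 in adipocytes and 2.59 in C2C12, where it had 239 and 39 counts. The size of these ratios was not compared by a test. With vehicle as the adipocyte reference, Fbln7 (log2 ratio 0.94), Npr3 (0.32), Gdpd5 (0.66) and Ptx3 (0.16) were not called. Slc45a3 was called higher against vehicle as well (2.43).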
